A study of Arabidopsis thaliana with 24 samples.

Results

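The genes described here are those that the plant cell keeps outside its nucleus: the 78 chloroplast-encoded and 23 mitochondria-encoded genes of the count table, 101 of its 16183 genes. They were taken as every row whose locus begins with ATCG (chloroplast) or ATMG (mitochondria). The plants were Arabidopsis thaliana Col-0 seedlings, 7 days old, with no transgene or mutation named. They were grown in 16 h of light and 8 h of dark at 21 °C on 1% sucrose. Whole seedlings were held in salicylhydroxamic acid (SHAM) for 1, 2 or 3 h, or in water for 1 h, and shoots and roots were parted after the treatment. Each of the 8 groups (SHAM 1 h, SHAM 2 h, SHAM 3 h and water 1 h, in shoots and in roots) had 3 libraries, labelled as biological replicates of 30 to 50 pooled seedlings. SHAM inhibits the alternative oxidase, a second end point of mitochondrial electron transport, and acts on some other enzymes too. The treatment label gives 1 mM SHAM, but the protocol text names 0.1 mM SHAM and also 30% polyethylene glycol with 1 mM SHAM, so the dose, and whether the solution held polyethylene glycol, are not settled. Water was sampled at 1 h, so the 2 h and 3 h differences from water also hold time in solution.

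Chloroplasts and mitochondria descend from free-living bacteria and still carry small genomes. The chloroplast genome encodes subunits of both photosystems, the cytochrome b6f complex, ATP synthase, an NADH dehydrogenase-like complex, the large subunit of Rubisco, a bacterial-type RNA polymerase, and part of the chloroplast's own ribosome. The plant mitochondrial genome encodes subunits of the respiratory complexes and ATP synthase, proteins of cytochrome c maturation, ribosomal proteins and structural RNAs. Organelle transcripts are made by phage-type polymerases and, in chloroplasts, also by the bacterial-type one. Most of them carry no stable poly(A) tail, and a tail added to an organelle transcript is known to mark it for decay. The libraries here are MARS-seq libraries, which are primed on poly(A) and read the 3′ end, so the counts cover the part of organelle RNA that such priming reached. They are not a measure of total organelle RNA. The table held 78 of the chloroplast loci, where the RefSeq chloroplast annotation (TAIR10.1) lists 129 genes, and 23 mitochondrial loci, where the mitochondrial annotation lists 284.

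Of the 101 loci, 6 are given here with a name or a description. ATCG00530 is paired with cemA, a protein of the chloroplast envelope whose role in inorganic carbon uptake is known from Chlamydomonas. ATCG00660 is rpl20, a protein of the large subunit of the chloroplast ribosome. ATCG01310 is rpl2, another protein of the large subunit, which the reference holds in 2 copies, so its counts are uncertain. ATCG00670 is clpP, the proteolytic subunit of the chloroplast Clp protease. For ATCG00430 the reference holds only a free-text description, photosystem II reaction center protein G, without a symbol, so its complex is not settled here. ATMG00180 is ccmFC, which acts in cytochrome c maturation. Other loci are given by their locus alone, and for this reason the members could be grouped by genome and by behaviour but not by complex.

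The genes cemA and rpl20, which passed the expression filter, are shown by the last 150 bases of their coding sequence. Where their transcripts end, and where the counted reads lay, is not given here. Runs of 5 or more A are in capitals, since priming on poly(A) can also start at an internal run of A. The sequences are from RefSeq (TAIR10.1, Pltd being the chloroplast chromosome), written 5′ to 3′ on the coding strand.
cemA, Pltd:61281-61430, plus strand: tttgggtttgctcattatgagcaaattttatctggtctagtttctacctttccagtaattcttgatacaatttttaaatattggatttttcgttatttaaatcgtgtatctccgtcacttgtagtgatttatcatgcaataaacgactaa
rpl20, Pltd:68512-68661, minus strand: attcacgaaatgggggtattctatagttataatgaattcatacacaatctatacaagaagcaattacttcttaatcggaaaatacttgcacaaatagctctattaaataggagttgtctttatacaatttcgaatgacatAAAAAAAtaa
The stretch of rpl20 holds 1 run of 7 A close to the stop codon, and that of cemA holds 0 runs. Over its whole coding sequence of 690 bases cemA holds 3 runs, the longest of 6 A. Runs of this kind are common: 38 of 87 chloroplast coding genes (43.7%) hold 1 of at least 7 A and 51 of 87 (58.6%) hold 1 of at least 6 A. Whether a run primed any of the counted reads was not tested.

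Library totals ran from 862731 to 3622300 counts. Chloroplast members took 2508 to 24983 counts in a shoot library and 575 to 3624 in a root library, and mitochondrial members 2382 to 24113 in a shoot library and 50268 to 146167 in a root library. A single locus, ATMG00020, made up 89.3 to 96.1% of the mitochondrial counts of every library, so the mitochondrial share is close to the share of that locus, whereas ATCG00650, the chloroplast member with the highest mean level, made up 4.17 to 19.5% of the chloroplast counts. The nuclear genome holds near-identical copies of much of the mitochondrial one. At 99% identity over at least 100 bases, 72.9% of the mitochondrial chromosome matched nuclear chromosomes of the reference, most of it chromosome 2, against 0.403% of the chloroplast one. How the authors' counting split such reads is not given, so reads of the mitochondrial loci and of their nuclear copies cannot be told apart. As a check of the organs, 11 nuclear photosynthesis genes took 7.30 to 11.2% of the counts of every shoot library. They took at most 0.147% in root libraries other than SHAM 1 h replicate 1, where they took 1.295%. Of 8 root genes, 3 to 6 were at 0 in each shoot library. In bulk tissue, fewer cells of a type and less RNA per cell cannot be told apart. P-values measure the spread between these pooled samples.

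**Figure D1:**
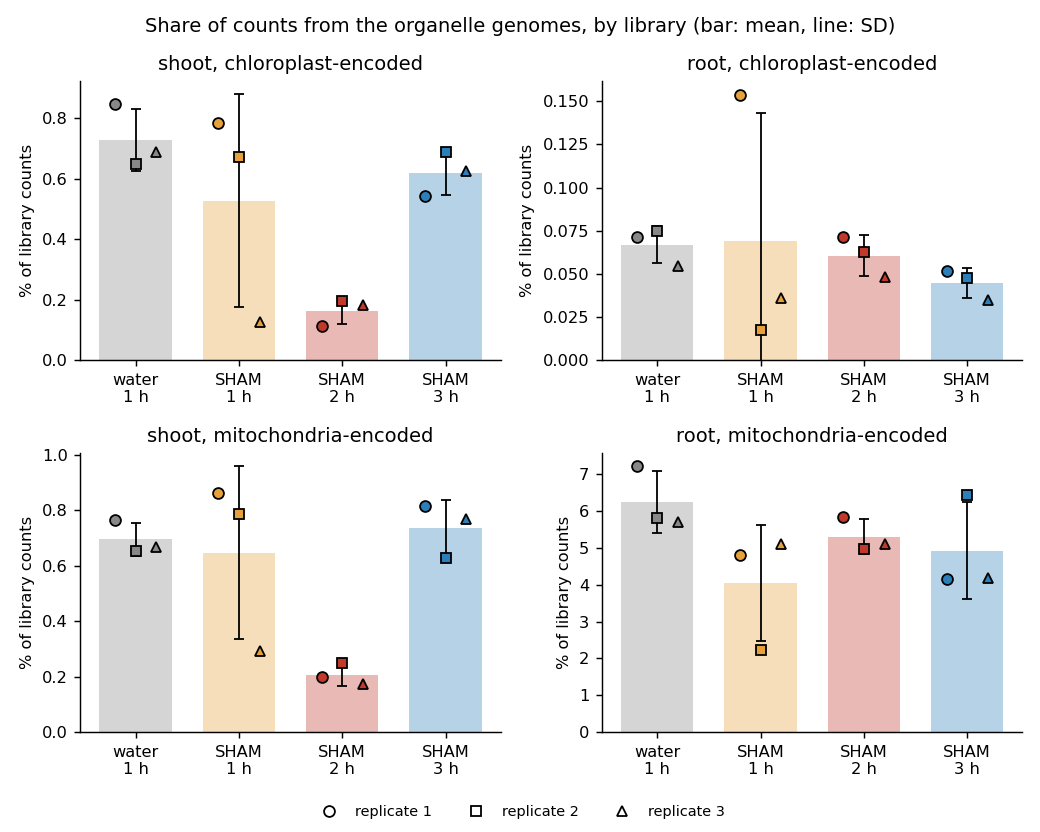
Share of all counts that came from chloroplast-encoded (upper panels) and mitochondria-encoded genes (lower panels), in percent of the library total, for shoots (left) and roots (right); points are libraries by replicate, bars are means and lines are SD (n = 3). In shoots both shares were lowest at SHAM 2 h, means 0.164% and 0.207%, and the SHAM 1 h points split into a pair near the water level and replicate 3 far below it.

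In shoots, the share of counts from both organelle genomes was low at SHAM 2 h and close to the water level at 3 h. Chloroplast members took 0.112, 0.197 and 0.182% of counts in the SHAM 2 h shoots, against 0.846, 0.650 and 0.690% in the water shoots. The means were 0.164 ± 0.0452% and 0.729 ± 0.104% (SD, n = 3 each), a ratio of 0.225, and the groups did not overlap. Mitochondrial members took 0.198, 0.249 and 0.173% in the SHAM 2 h shoots and 0.764, 0.654 and 0.666% in the water shoots, again without overlap, a ratio of 0.297. An exact two-sided permutation test gave p = 0.1 for each genome, which is the smallest p that 3 against 3 libraries allow (adjusted over 16 share tests, 0.229). At SHAM 3 h the shares were 0.618 ± 0.0722% for the chloroplast and 0.737 ± 0.0984% for the mitochondria (SD, n = 3), 0.849 and 1.06 times the water means.

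The SHAM 1 h shoots did not form a group. Replicates 1 and 2 had chloroplast shares of 0.783 and 0.674%, inside or close to the range of the water shoots, and replicate 3 had 0.127%, inside the range of the SHAM 2 h shoots. The mitochondrial share was 0.864 and 0.787% in replicates 1 and 2, above the water shoots, and 0.292% in replicate 3, between the water shoots and the SHAM 2 h shoots. Replicate 3 carried the shoot label with 11.2% of its counts in the photosynthesis list, and 9.71 to 10.5% went to that list in the SHAM 2 h shoots, against 7.85 to 9.20% in the water shoots and 7.30 to 8.26% in the SHAM 3 h shoots. SHAM 1 h replicates 1 and 2 also gave that list a larger part of their counts than any water shoot did. Of these 11 nuclear genes, 6 were called higher at SHAM 2 h than in water by edgeR, where 8.38% of all genes were. At SHAM 1 h 6 were called higher too, where 9.36% of all genes were. The median log2 change of the list was 1.19 at SHAM 1 h and 0.691 at SHAM 2 h. Whether this bears on the organelle shares was not tested.

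Member by member, 35 of the 50 chloroplast genes tested fell in the SHAM 2 h shoots and 0 rose. Over all 8570 genes tested in shoots, 7.44% fell and 8.38% rose. A call is an adjusted p under 0.05 from edgeR's quasi-likelihood test (Benjamini-Hochberg over all genes), and the other 28 chloroplast members were too low to be tested. The log2 fold change was negative for 47 of the 50, with a median of -2.90, beside -0.00267 over all genes tested. For each of the 35 called members the SHAM and water libraries did not overlap. The share of all called genes without overlap is not given here, so this cannot be read as particular to these members. Fewer were called without SHAM 2 h replicate 1 (15) or replicate 2 (22), all of them lower, and the medians were then -2.46 and -3.22.

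**Figure D2:**
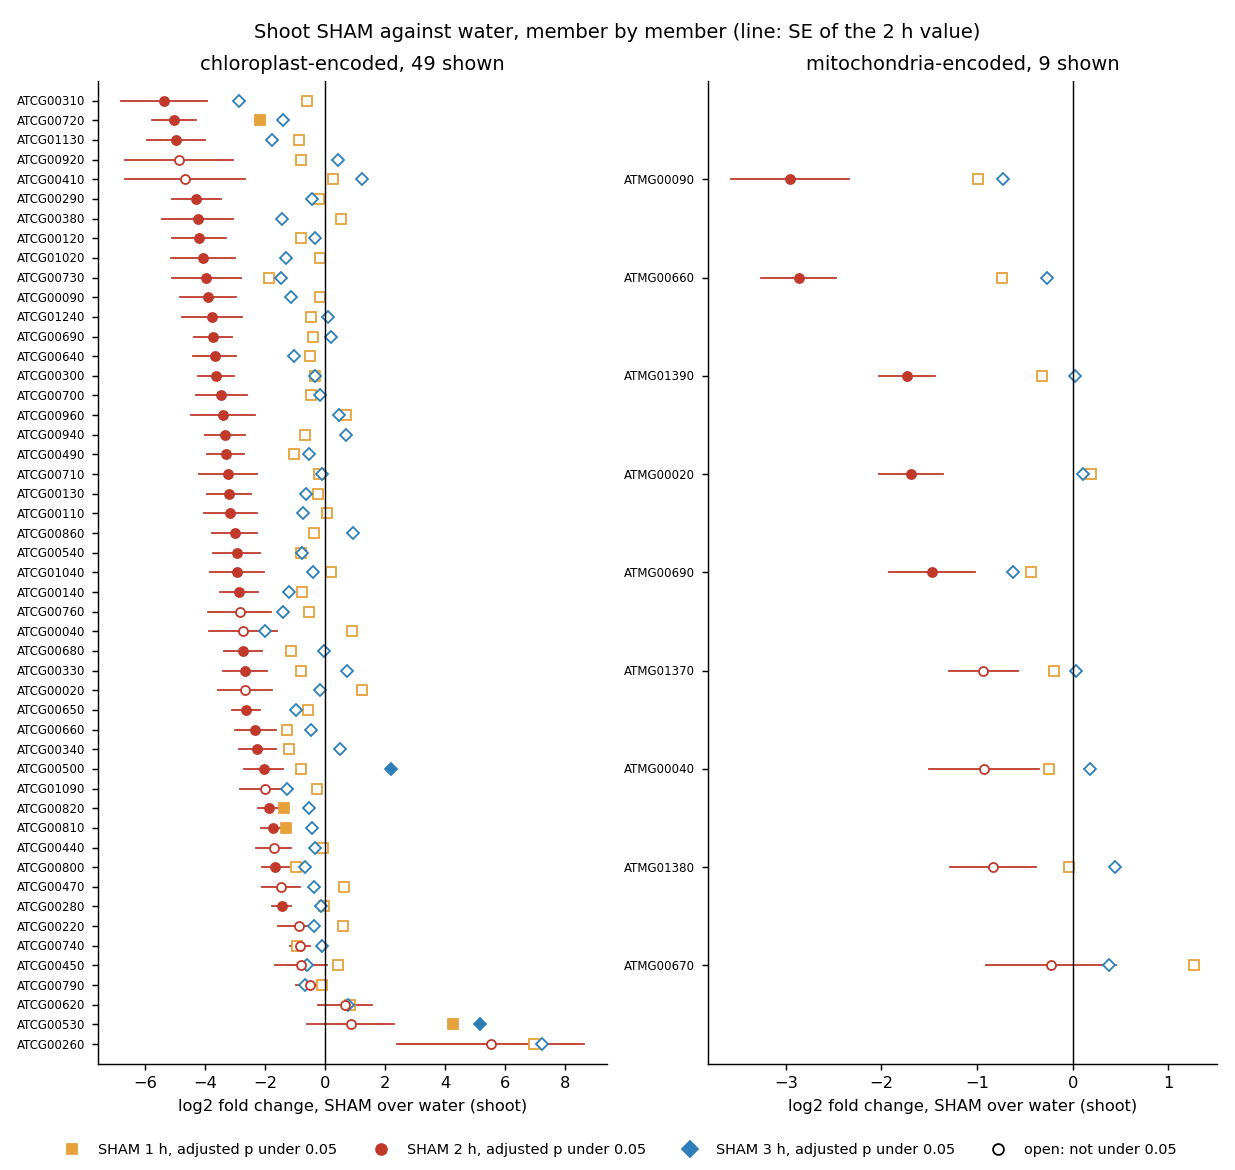
Log2 fold change of each tested member in shoots, SHAM over water, at 1 h (squares), 2 h (circles, with SE) and 3 h (diamonds), for 49 chloroplast-encoded (left) and 9 mitochondria-encoded genes (right) in order of the 2 h value; filled symbols have an adjusted p under 0.05. At 2 h 34 of these chloroplast and 5 mitochondrial members are filled and lie left of 0, while at 3 h the only filled symbols are those of ATCG00530 and ATCG00500, right of 0.

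The size of the drop varied widely between members. ATCG00720 had 2.12, 7.74 and 2.91 CPM (counts scaled to a common library total) in the SHAM 2 h shoots, against 197, 65.1 and 182 CPM in the water shoots. Its highest SHAM value was far below its lowest water value, and the log2 fold change was -5.04 ± 0.73 (SE, adjusted p = 3.65e-04 by edgeR). ATCG01130 and ATCG00290 fell by 4.98 ± 0.97 and 4.30 ± 0.82 on the log2 scale (SE, edgeR adjusted p = 0.00336 and 0.0028), with 10 and 11 counts over the 3 SHAM libraries. ATCG00310 (-5.38 ± 1.43, SE, edgeR adjusted p = 0.0198) and ATCG00380 (-4.26 ± 1.18, SE, edgeR adjusted p = 0.0248) rested on 5 counts each in the SHAM libraries and lost their calls without SHAM 2 h replicate 1 or 2. ATCG00120 had 2 counts in the SHAM 2 h libraries and 47 in the water libraries, a level 25.7-fold lower with a 95% counting interval of 6.73 to 218.

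Several members with more counts had smaller standard errors, though that of ATCG00640 was close to that of ATCG00720. ATCG00650 had 155, 238 and 204 CPM in the SHAM 2 h shoots, against 1602, 1266 and 1012 CPM in the water shoots, a log2 fold change of -2.64 ± 0.47 (SE, edgeR adjusted p = 0.00154). ATCG00490 had 18.5, 42.0 and 56.7 CPM in the SHAM 2 h shoots and 463, 390 and 369 CPM in the water shoots (-3.32 ± 0.61, SE, edgeR adjusted p = 0.00224). Neither gene had a SHAM 2 h value near its water range. ATCG00640 (-3.69 ± 0.72, SE) and ATCG00300 (-3.63 ± 0.60, SE) fell by similar amounts, with edgeR adjusted p-values of 0.00328 and 9.62e-04. ATCG00820 and ATCG00810 fell by 1.87 ± 0.37 and 1.76 ± 0.40 on the log2 scale (SE, edgeR adjusted p = 0.00382 and 0.00839). The call of ATCG00810 ended without SHAM 2 h replicate 1 (adjusted p = 0.0532).

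Some members did not follow. ATCG00740 had 215, 349 and 123 CPM in the SHAM 2 h shoots, against 286, 369 and 617 CPM in the water shoots, and these ranges overlapped. Its log2 fold change was -0.84 ± 0.33 (SE, edgeR adjusted p = 0.0993). ATCG00470 had 213, 255 and 352 CPM in the SHAM 2 h shoots and 1179, 816 and 404 CPM in the water shoots. The groups did not overlap, but the spread in water was wide and the change of -1.48 did not pass the test (edgeR adjusted p = 0.137).

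The ribosomal protein gene rpl20 fell. For this gene there were 2, 4 and 3 counts in the SHAM 2 h shoots, against 9, 10 and 31 in the water shoots, a log2 fold change of -2.33 ± 0.68 (SE, edgeR adjusted p = 0.0306). The genes clpP and rpl2 stayed under the filter, with at most 8 and 11 counts in any shoot library. ATCG00430 had at most 1 count in a SHAM 2 h shoot and 14, 0 and 4 counts in the water shoots.

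**Figure D3:**
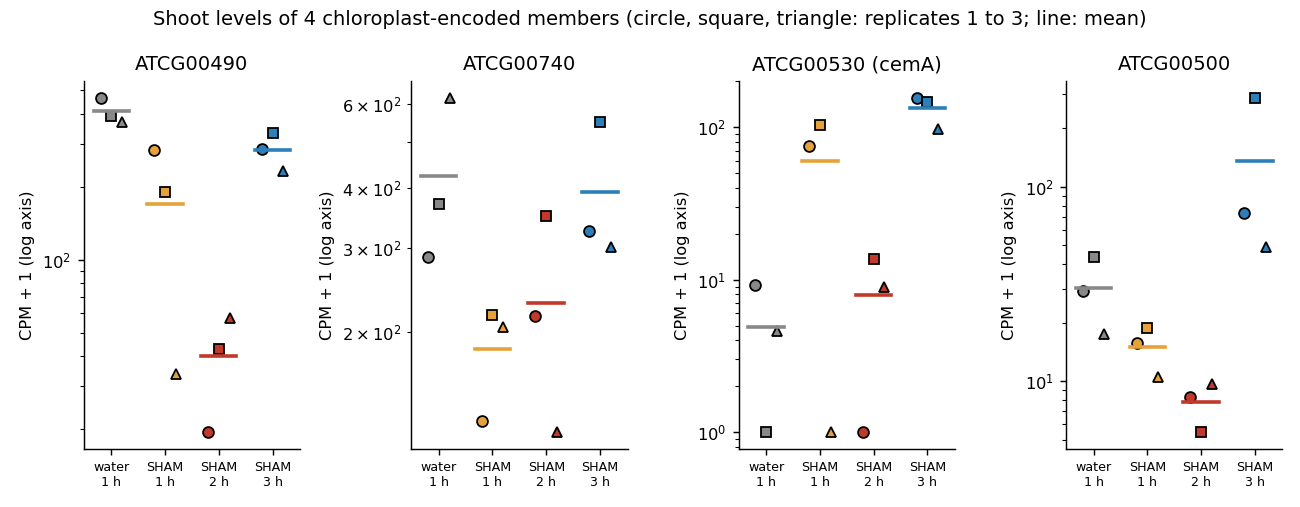
Level in each shoot library of ATCG00490, ATCG00740, ATCG00530 (cemA) and ATCG00500, as CPM + 1 on a log axis; symbols are replicates and lines are means. ATCG00490 is lowest at SHAM 2 h and in SHAM 1 h replicate 3, the ATCG00740 points at SHAM 2 h overlap those in water, and ATCG00530 and ATCG00500 are highest at SHAM 3 h.

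Because the chloroplast share as a whole was lower, the members were also compared with the total of their own genome, which shows how the make-up of the chloroplast counts differed. On that scale 8 of the 50 members fell and 1 rose at SHAM 2 h, where 7.05% of all genes fell and 8.37% rose in the same fit. ATCG00720 made up 0.247 ± 0.127% of chloroplast counts in the SHAM 2 h shoots, against 1.99 ± 0.868% in the water shoots (SD, n = 3 each; log2 -2.93 ± 0.49 SE, edgeR adjusted p = 0.00104). ATCG00490 made up 2.29 ± 0.748% in the SHAM 2 h shoots and 5.61 ± 0.344% in the water shoots (SD, n = 3 each; log2 -1.30 ± 0.24 SE, edgeR adjusted p = 0.00242). The other members that fell were ATCG00290 (-2.19), ATCG01130 (-2.81), ATCG00640 (-1.61), ATCG00300 (-1.49), ATCG00940 (-1.22) and ATCG00130 (-1.19). ATCG00620 rose by 2.59 ± 0.69 (SE, edgeR adjusted p = 0.0204), on 5, 9 and 20 counts in the SHAM 2 h shoots, against 5, 9 and 11 in the water shoots. ATCG00740 made up 14.5 ± 6.79% at SHAM 2 h and 5.999 ± 2.79% in water (SD, n = 3 each), which did not pass the test (edgeR adjusted p = 0.209).

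**Figure D4:**
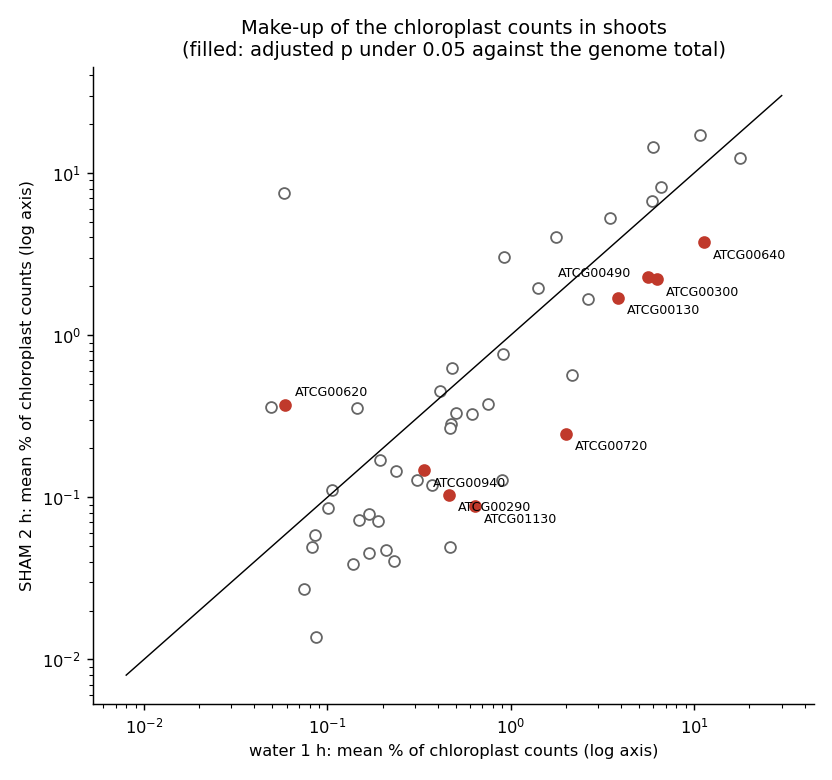
Mean percentage of the chloroplast counts taken by each of the 50 tested members in SHAM 2 h shoots (vertical) and in water shoots (horizontal), both on log axes, with the line of equal shares; filled points have an adjusted p under 0.05 against the genome total. The filled points are 8 members below the line, ATCG00720 and ATCG01130 lowest relative to it, and ATCG00620 above it.

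Among the mitochondrial members, 9 of 23 were tested in shoots and 5 fell at SHAM 2 h, where 7.44% of all genes tested fell. The median log2 change was -1.47, beside -0.00267 over all genes. ATMG00020 had 1850, 2367 and 1613 CPM in the SHAM 2 h shoots, against 7099, 6175 and 6271 CPM in the water shoots, a change of -1.69 ± 0.34 (SE, edgeR adjusted p = 0.00372). ATMG00660 had 11.5, 14.7 and 4.36 CPM in the SHAM 2 h shoots, against 89.0, 69.0 and 81.4 CPM in the water shoots, a change of -2.87 ± 0.39 (SE, edgeR adjusted p = 2.3e-04). In both genes every SHAM 2 h library was below every water library. ATMG01390 (-1.73 ± 0.29, SE, edgeR adjusted p = 0.00117) and ATMG00090 (-2.96 ± 0.61, SE, edgeR adjusted p = 0.00496) fell too. ATMG00690 (-1.47 ± 0.45, SE, edgeR adjusted p = 0.0405) lost its call without any of 5 of the 6 libraries. Relative to the mitochondrial total, ATMG00660 fell by 1.19 ± 0.28 (SE, edgeR adjusted p = 0.00964), where 7.05% of all genes fell in that fit. ATMG00020 is most of that total, so its own value on this scale is near 0 by construction.

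At SHAM 1 h in shoots, 3 of the 50 chloroplast members fell and 1 rose, where 7.49% of all genes tested fell and 9.36% rose. Both parts were smaller than those over all genes, so the number of calls does not set these members apart. The median log2 change was -0.39, beside 0.05 over all genes. ATCG00720 had 32.7, 43.9 and 5.46 CPM in the SHAM 1 h shoots, against 197, 65.1 and 182 CPM in the water shoots, without overlap (-2.17 ± 0.61, SE, edgeR adjusted p = 0.0262). ATCG00820 (-1.37 ± 0.37, SE, edgeR adjusted p = 0.0211) and ATCG00810 (-1.31 ± 0.40, SE, edgeR adjusted p = 0.0355) also fell. These calls depended on single libraries: 0 of the 50 were called without water replicate 3 (5 at an unadjusted p under 0.05). Without SHAM 1 h replicate 3, the library with the low shares, ATCG00720 stayed called, and the median was 0.17. Of the mitochondrial members 0 of 9 were called by edgeR or by DESeq2, and 0 had an unadjusted p under 0.05. Relative to the genome total, ATCG00720 (-1.95 ± 0.43, SE) and ATCG00490 (-0.90 ± 0.24, SE) fell, with edgeR adjusted p-values of 0.00592 and 0.0178, where 7.49% of all genes fell in that fit, as did ATMG00660 (-0.86, edgeR adjusted p = 0.0358), whose call ended without any of the 6 libraries and with ATMG00020 left out of the total.

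The gene that rose at 1 h was cemA. Its counts were 66, 196 and 0 in SHAM 1 h shoots, 0, 31 and 11 at SHAM 2 h and 427, 414 and 130 at SHAM 3 h, against 11, 0 and 13 in the water shoots, and at most 2 in any root library. At 3 h each SHAM library was above each water library, at 132 ± 31.5 CPM against 3.92 ± 4.09 CPM (SD, n = 3 each; log2 5.16 ± 1.28 SE, edgeR adjusted p = 0.0212). At 1 h the groups overlapped (log2 4.26 ± 1.29 SE, edgeR adjusted p = 0.0355). With DESeq2 the adjusted p-values were 0.0797 at 3 h and 0.143 at 1 h. Leaving out SHAM 3 h replicate 1, or each water library in turn, also ended the 3 h call (edgeR adjusted p = 0.0515 to 0.0919).

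At SHAM 3 h, 0 of the 50 chloroplast members fell and 2 rose, a smaller part than the 6.31% of all genes tested that rose. Besides cemA this was ATCG00500, with 72.1, 286 and 48.2 CPM in the SHAM 3 h shoots, against 28.2, 42.6 and 16.6 CPM in the water shoots. The groups did not overlap, but replicate 2 stood far above the others (2.19 ± 0.57, SE, edgeR adjusted p = 0.0265). Its call ended without SHAM 3 h replicate 2 or water replicate 1 or 3 (highest adjusted p 0.19). The median over the 50 was -0.40. Of the 9 mitochondrial members 0 were called by edgeR or by DESeq2, with 0 at an unadjusted p under 0.05. ATCG00650 had a log2 change of -0.97 on the scale of all counts, which did not pass the test (edgeR adjusted p = 0.199). It made up 10.8 ± 0.981% of chloroplast counts in the SHAM 3 h shoots, against 17.7 ± 2.63% in the water shoots (SD, n = 3 each), and on that scale it fell by 0.71 ± 0.18 (SE, edgeR adjusted p = 0.0251), where 2.72% of all genes fell. In SHAM 3 h replicate 3 ATCG00260 alone was 23.8% of that total, which lowers the part left to other members there. The number of members called on that scale was 3, and 1 without SHAM 3 h replicate 2 or without water replicate 1.

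The steps between SHAM times need no water group. Between SHAM 3 h and SHAM 2 h, 21 of the 50 chloroplast members rose and 0 fell, where 4.66% of all genes tested rose, and the median log2 change was 2.54. ATCG00940 had 46.6, 47.9 and 23.7 CPM at 3 h, against 1.51, 2.85 and 2.91 CPM at 2 h (4.03 ± 0.66, SE, edgeR adjusted p = 0.00272). ATCG00690 (3.94 ± 0.63, SE, edgeR adjusted p = 0.00244) and ATCG00860 (3.94 ± 0.75, SE, edgeR adjusted p = 0.00597) rose by similar amounts, and ATCG00500 rose by 4.24 ± 0.65 (SE, edgeR adjusted p = 0.00194). The 4 genes were without overlap between the times. All of the mitochondrial members called, 4 of 9, rose: ATMG00660 by 2.60, ATMG00090 by 2.23, ATMG00020 by 1.80 and ATMG01390 by 1.76. Here same-numbered replicates deviated together, and with the replicate number as a block 17 chloroplast members were called, without cemA (edgeR adjusted p = 0.0728; 0.0388 without the block), and 3 mitochondrial members, without ATMG00090. The count was 6 without SHAM 2 h replicate 1, 13 without SHAM 2 h replicate 3, and 10 without SHAM 3 h replicate 1 or 2.

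Between SHAM 2 h and SHAM 1 h, 16 of the 50 fell and 0 rose, where 3.2% of all genes tested fell, with a median of -2.48. ATCG00300 had 27.8, 59.5 and 20.4 CPM at 2 h, against 369, 462 and 56.9 CPM at 1 h (-3.28 ± 0.59, SE, edgeR adjusted p = 0.00822). The 1 h value of replicate 3 lay among the 2 h values. The mitochondrial ATMG00020 (-1.88), ATMG00660 (-2.13) and ATMG01390 (-1.41) fell without overlap. Leaving out SHAM 1 h replicate 3 gave 36 calls, all lower. Leaving out any other library gave 1 to 7.

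Roots gave a different picture. Chloroplast members took 0.154, 0.0177 and 0.0361% of counts in the SHAM 1 h roots, 0.0713, 0.0624 and 0.0479% at 2 h and 0.0517, 0.0476 and 0.0347% at 3 h, against 0.0713, 0.0748 and 0.0546% in the water roots. The SHAM 3 h roots lay below the water roots without overlap, a ratio of 0.667 (exact permutation p = 0.1, adjusted 0.229). Root SHAM 1 h replicate 1, with the highest chloroplast share, was the root library with 1.295% of its counts in the nuclear photosynthesis genes. Where those transcripts came from, and their bearing on the chloroplast share, was not tested. Mitochondrial members took 4.80, 2.22 and 5.12% at 1 h, 5.85, 4.96 and 5.10% at 2 h and 4.15, 6.44 and 4.19% at 3 h, against 7.22, 5.83 and 5.72% in the water roots. At 1 h these groups did not overlap, with means of 4.05 ± 1.59% in SHAM roots and 6.25 ± 0.837% in water roots (SD, n = 3 each; exact permutation p = 0.1, adjusted 0.229).

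Of the 19 chloroplast and 15 mitochondrial members tested in roots, 0 were called at 1, 2 or 3 h, by edgeR or by DESeq2, where 12.2, 14 and 16.4% of all genes tested in roots were called. At an unadjusted p under 0.05 there were 0 chloroplast members at each time, and 2, 1 and 1 mitochondrial members. Without root SHAM 1 h replicate 1, the root library highest in the nuclear photosynthesis genes, 4 chloroplast members and 1 mitochondrial member were lower at 1 h. The share of all genes lower in that fit is not given here. ATMG00020 had 45445, 20684 and 48133 CPM in the SHAM 1 h roots, against 67716, 53955 and 53848 CPM in the water roots. The SHAM values were all lower, but the log2 change of -0.39 did not pass the test (edgeR adjusted p = 0.3). Relative to the mitochondrial total, 1 of the 15 members tested rose at 2 h and 1 at 3 h, a smaller part than the 8.61 and 10% of all genes that rose in those fits. At both times it was ATMG01390, by 0.64 ± 0.19 and 0.63 ± 0.19 (SE, edgeR adjusted p = 0.0393 and 0.0374). It made up 8.45 ± 1.01% and 8.40 ± 1.38% of mitochondrial counts at 2 h and 3 h, against 5.43 ± 0.756% in the water roots (SD, n = 3 each), and the calls ended without any of 5 and any of 4 of the 6 libraries compared. Relative to the chloroplast total, 1 of the 19 members tested fell at 1 h, a part close to the 5.24% of all genes that fell. It was ATCG01130, by 1.78 ± 0.42 (SE, edgeR adjusted p = 0.0147), and 0 were called without water replicate 2.

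The difference between organs was tested as an interaction, the shoot change minus the root change, over all 24 libraries. At 2 h, 8 of 48 chloroplast members and 2 of 15 mitochondrial members were lower, where 2.52% of all genes were. Of the 48 chloroplast members 29 did not pass the filter in roots alone, so their root change rests on few or no counts, and 6 of the 8 called were among the other 19. ATCG00490 had the adjusted p farthest under the threshold of the 8, with an interaction of -4.53 ± 0.95 (SE, edgeR adjusted p = 0.00732). Its root levels were 35.8, 18.4 and 16.0 CPM at SHAM 2 h and 18.5, 6.96 and 12.7 CPM in water, and the SHAM and water roots overlapped. ATMG01390 (-2.52 ± 0.42, SE, edgeR adjusted p = 0.00118) and ATMG00660 (-3.36 ± 0.61, SE, edgeR adjusted p = 0.00231) were the mitochondrial members. The calls of ATCG00490, ATMG01390 and ATMG00660 held under every alternative tried, whereas the chloroplast count was 1 to 6 with a single library left out, 3 with library size alone and 14 with DESeq2. At 1 h and at 3 h 0 members of either genome were called by edgeR or by DESeq2, where 5.93 and 1.73% of all genes were called by edgeR. At an unadjusted p under 0.05 there were 4 chloroplast and 0 mitochondrial members at 1 h and 0 of either at 3 h. An effect seen in shoots and not in roots at those times is therefore not shown to differ between organs.

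In water, the organs differed in opposite directions for the 2 genomes. Of 48 chloroplast members tested, 44 were higher in shoots than in roots and 0 lower, where 25.1% of all genes were higher. The count leans on the filter on low counts, since 29 of the 48 did not pass it in roots alone and entered through the shoots. Of the 19 that passed in roots too, 18 were higher in shoots. ATCG00860, ATCG00680 and ATCG00720, given next, entered through the shoots, so their values are no separate support for the difference. ATCG00860 had 82, 81 and 185 counts in the water shoots and 0 in each water root, at least 82.5-fold higher against a floor of 3 counts over the group. ATCG00680 had 239 counts over the water shoots and 1 over the water roots, a ratio of 170 with a 95% counting interval of 30.2 to 6741. ATCG00720 was 7.43 ± 0.89 higher on the log2 scale (SE). ATCG00740, which passed in roots too, was 3.27 ± 0.42 higher (SE, edgeR adjusted p = 5.23e-07). The 4 members tested but not called were ATCG00760, cemA, ATCG01130 and ATCG00260. ATCG01130 had 48.0 CPM in water shoots and 38.5 CPM in water roots on average. It made up 0.638 ± 0.214% of chloroplast counts in shoots and 5.62 ± 2.402% in roots (SD, n = 3 each), lower by 3.11 ± 0.47 on the log2 scale (SE, edgeR adjusted p = 6.76e-06), where 25.1% of all genes were lower.

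Of 15 mitochondrial members tested in water, 6 were lower in shoots and 0 higher, where 25.1% of all genes were lower. Of these 15, 9 passed the filter in shoots too, and 3 of the 9 were lower. ATMG00020 averaged 6515 ± 508 CPM in water shoots and 58506 ± 7976 CPM in water roots (SD, n = 3 each), without overlap, a fitted log2 difference of -2.09 ± 0.39 (SE, edgeR adjusted p = 9.04e-05). ATMG01390 averaged 231 ± 57.3 CPM in water shoots and 3391 ± 570 CPM in water roots (SD, n = 3 each; -2.81 ± 0.31, SE, edgeR adjusted p = 7.02e-08). The fitted differences are relative to TMM scaling and the CPM to the library total: the median of all genes was -0.12 with TMM and -1.19 with library size alone, which called 11 mitochondrial members lower. The share of all genes lower with library size alone is not given here, and the 25.1% belongs to the TMM fit. ATMG00690, ATMG00040, ATMG00660, ATMG01370, ATMG00090, ATMG00060 and ATMG00160 made up a larger part of the mitochondrial counts in shoots than in roots, by 1.41 to 3.07 on the log2 scale, and these 7 of 15 were called, where 24.9% of all genes were higher in that fit.

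A few chloroplast members sat almost wholly in single shoot libraries, and they are named here after their values were seen. ATCG00260 had 2, 1981 and 0 counts in the SHAM 1 h shoots, 1, 0 and 563 at SHAM 2 h and 12, 7 and 2003 at SHAM 3 h, against 8, 10 and 1 in the water shoots. In the 3 libraries where it was high it made up 15.4, 22.4 and 23.8% of all chloroplast counts. ATCG00400 had 487 counts in SHAM 1 h replicate 1 and 2661 in SHAM 3 h replicate 2, 13.5% of the chloroplast counts there, and at most 3 in any other shoot library. ATCG00410 and ATCG00920 did so across treatments, water included: ATCG00410 had 169 counts in water replicate 3 and 1 in each other water shoot, and ATCG00920 had 592 counts there and at most 20 in the others. The high libraries were shared in part: SHAM 1 h replicate 2 held 1981 counts of ATCG00260, 85 of ATCG00410 and 136 of ATCG00920, and SHAM 3 h replicate 1 held 146 of ATCG00410 and 626 of ATCG00920. ATCG00400 did not pass the filter, and the other 3 were not called in a shoot comparison of SHAM with water.

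**Figure D5:**
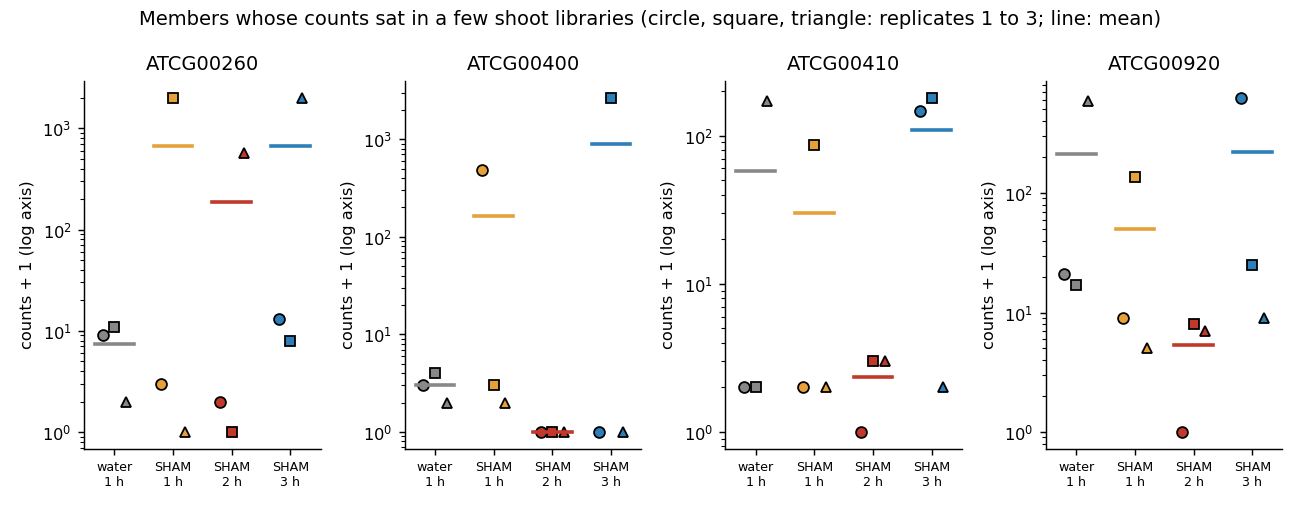
Counts + 1 (log axis) of ATCG00260, ATCG00400, ATCG00410 and ATCG00920 in each shoot library by group; symbols are replicates and lines are means. High values stand in at most 2 libraries of a group, and at SHAM 2 h ATCG00260 alone of the 4 has a high library.

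Nuclear genes that serve organelle transcription were followed as listed genes. Of 4 sigma factors tested in shoots, proteins that direct the bacterial-type chloroplast polymerase to promoters, 3 fell at SHAM 1 h: SIG3 by 1.46 ± 0.31, SIG4 by 1.19 ± 0.24 and SIG6 by 1.54 ± 0.31 on the log2 scale (SE, edgeR adjusted p = 0.00535, 0.00346 and 0.00348), where 7.49% of all genes fell. At SHAM 2 h SIG6 alone was called (-1.07 ± 0.29, SE, edgeR adjusted p = 0.021), and at 3 h 0 were. Of 9 proteins associated with that polymerase, 0 were called at 1 h, PAP1 (-1.82 ± 0.52, SE, edgeR adjusted p = 0.0279) and PAP12 (-3.18 ± 1.00, SE, edgeR adjusted p = 0.0455) fell at 2 h, where 7.44% of all genes fell, and 0 were called at 3 h. Of the RNA decay list, CSP41A and CSP41B, RNA-binding proteins of the chloroplast, were tested, and CSP41B fell at 3 h (-1.73 ± 0.35, SE, edgeR adjusted p = 0.0063), where 2.68% of all genes fell. In roots at SHAM 1 h SIG2 rose by 1.68 ± 0.50 (SE, edgeR adjusted p = 0.043) and PAP6 by 1.79 ± 0.47 (SE, edgeR adjusted p = 0.0255), where 12.2% of all genes were called. Replicate 1 of that group was also the root library highest in the nuclear photosynthesis genes.

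In the authors' deposited table, whose log2 values have water on top and whose calls also ask for a log2 change of at least 1, 33 chloroplast and 6 mitochondrial members were lower in the SHAM 2 h shoots than in water. The authors' deposited table has 3 chloroplast members lower at 1 h and 0 members changed at 3 h, without cemA. For the SHAM 3 h against 2 h step the authors' deposited table has 17 chloroplast and 4 mitochondrial members higher. In roots the authors' deposited table calls 1 chloroplast member higher at 1 h, 1 at 2 h and 0 at 3 h. The share of all genes called under the authors' rule is not given here, so these counts stand without a background.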

How the data were processed

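Roots and shoots were measured by MARS-seq, which sequences transcript 3′ ends, in 24 libraries. Per the submitters' processing notes, reads went through bcl2fastq, cutadapt, STAR 2.4.2a, HTSeq and DESeq2; the genome build, and whether molecular identifiers were collapsed, are not given in the sources used here. The authors deposited whole-number counts per gene and library, which were used as they stand, and per comparison a log2 fold change and an adjusted p-value, named as theirs where printed. A further 48 per-sample columns were not used.

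Library totals ran from 862731 to 3622300 counts, which limits members with few counts. Counting error is all that the intervals and the floor of 3 counts, taken over a group, allow for. The members and gene lists were chosen with earlier results of these data known. R 4.3.3 with edgeR 4.0.16 ran the quasi-likelihood test on all genes with TMM scaling and Benjamini-Hochberg adjustment. Low genes were removed by filterByExpr with min.count at 10 and min.total.count at 15. Fits within an organ used 12 libraries, and organ comparisons used all 24. A second fit scaled each organelle gene to the total of its own genome. Genome shares were compared by exact permutation, 16 tests. A standard error is the absolute log2 fold change divided by the root of the F statistic. The fits were repeated with DESeq2 1.42.0, a replicate block, library size alone, median-ratio size factors, no filter, and each library left out. The fit was tested on simulated data. Same-numbered libraries deviated together in every pair in the shoot SHAM 3 h against 2 h step alone (correlations 0.244, 0.394 and 0.569, each library nearest its own number), and the pairing comes from the data, not the labels. Named genes were, per comparison and genome, up to 6 called members with the largest change, the 8 with the highest mean CPM in each genome, and members that the sources name. The symbols that this rule also listed could be matched to a locus only for clpP. A chloroplast member counted in the totals is not reported here on its own. Nuclear copies were found with BLAST+ 2.17.0 in TAIR10.1, whose use here is limited to sequences and names. Figures were drawn with matplotlib 3.10.9 under Python 3.11.15.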

Additional observations from a re-analysis of the deposited data

Results flagged for a closer look

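The shoot and root responses to SHAM at 2 h differed by an interaction test (edgeR over all 24 libraries, adjusted p under 0.05) for 10 members. They were 8 of 48 chloroplast and 2 of 15 mitochondrial members tested, each with a shoot change below its root change, where 2.52% of all genes were lower. The 2 mitochondrial genes had interactions of -2.52 (ATMG01390) and -3.36 (ATMG00660) on the log2 scale. Among the chloroplast genes, ATCG00290 had -6.11, ATCG00720 -5.93, ATCG01130 -4.57, ATCG00490 -4.53, ATCG00640 -4.25 and ATCG00300 -3.93. The values nearest to 0 were those of ATCG00820 (-2.48) and ATCG00810 (-2.45). In roots ATCG00290 and ATCG00720 were too low to be tested on their own, so their root change rests on few counts. The others were not called in roots at 2 h. The root levels of ATCG00290 rested on 15 counts over the SHAM 2 h libraries and 5 over the water libraries. The calls held to different degrees: of 17 alternatives, 14 ended those of ATCG01130 and ATCG00640, 10 those of ATCG00810 and ATCG00820, 9 that of ATCG00300, 4 that of ATCG00720 and 3 that of ATCG00290, while 0 ended those of ATCG00490, ATMG00660 and ATMG01390.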

How the results depend on the processing

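Of the values of single genes, 2544 stayed on the same side of the threshold, 193 no longer passed it and 30 newly passed it. Of 907 values of called genes 0 changed sign, and of 1860 values of genes not called 135 did, among them ATMG00020 in roots at 2 h (log2 0.04, and -0.30 with library size alone). Several differences in genome share (SHAM minus water, percentage points) changed sign. For the root chloroplast share at 1 h (0.00233) they ran from -0.0400 to 0.0281 with a library left out and were -0.00130 without the top member. At 2 h (-0.00636) the effective library size gave 0.00766. For the root mitochondrial share, the effective library size and leaving out ATMG00020 gave 0.351 and 0.106 at 2 h (-0.949) and 0.0717 and 0.0624 at 3 h (-1.32). In shoots, the mitochondrial share at 1 h (-0.0472) ran from -0.155 to 0.131 and was 0.0778 with the effective size, and at 3 h (0.0426) it was -0.00238 without ATMG00020.

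With a library left out, chloroplast calls in shoots ran from 0 to 4 at 1 h (4). The range was 15 to 30 for SHAM 2 h (35) and 0 to 2 for SHAM 3 h (2; 1 with DESeq2). For the step from 1 h to 2 h they ran from 1 to 36 (16), and were 27 with no filter, 26 with DESeq2 and 6 with the replicate block. For the step from 2 h to 3 h they ran from 6 to 23 (21), and were 32 with no filter and 17 with the replicate block, which also ended the calls of ATCG00640 and ATCG00650. Mitochondrial calls ran from 1 to 5 for the first step (3), and from 3 to 6 for water shoots against water roots (6; 11 with library size alone). In roots, chloroplast calls ran from 0 to 4 at 1 h (0), and mitochondrial calls from 0 to 1 at 1 h and 3 h (0), with 1 at 2 h with no filter (0). The organ difference ran from 0 to 2 chloroplast calls at 1 h (0). At 2 h it ran from 1 to 6 (8), with 3 for library size alone and 14 for DESeq2, which called 4 mitochondrial members (2). Relative to the genome total, chloroplast calls ran from 0 to 2 in roots at 1 h (1), 0 to 1 in roots at 3 h (0), 1 to 4 in shoots at 1 h (3), 1 to 5 at 3 h (3), 0 to 11 and 2 to 10 for the steps (2 and 9), 0 to 1 for the organ difference at 1 h (0) and 1 to 3 at 2 h (3). On that scale mitochondrial calls ran from 0 to 1 in roots at 1, 2 and 3 h (0, 1 and 1), were 0 in shoots at 1 h with any library left out or without ATMG00020 in the total (1), and ran from 0 to 1 and 0 to 2 for the steps (0 and 0) and 0 to 1 for the organ difference at 2 h (1). The cause was not tested beyond the fewer libraries of such fits. The share of all genes called under each alternative is not given here, so these counts of calls stand without a background. Outside the step from 2 h to 3 h not every same-numbered pair deviated together (lowest correlation per comparison -0.62 to 0.028). In shoots at SHAM 1 h against water the correlations were 0.442, 0.028 and 0.514, with 2 libraries nearest their own number. Shoots and roots were compared in this way in water only, so pairing between organs in the SHAM groups was not tested. Apart from the counts above the block left counts within 1.5 times of those printed. The members with enough counts to be tested were 50 of 78 and 9 of 23 in shoots and 19 of 78 and 15 of 23 in roots.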

Other observations

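Some values of single libraries were not given above. ATCG00600 had 34 counts in shoot water replicate 1 and at most 5 in any other library. Root SHAM 1 h replicate 2 had the lowest chloroplast share of all libraries, 0.0177%, from 575 counts, and ATCG00740 alone made up 40.5% of those counts, against 5.11 to 17.3% in the other root libraries. The ratio of mitochondrial to chloroplast counts was 0.902 to 2.29 in shoot libraries and 31.2 to 142 in root libraries, with the lowest root value in SHAM 1 h replicate 1. Within shoots its highest value was that of SHAM 1 h replicate 3. No hypothesis was tested on these values.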
